A study of Homo sapiens with 16 samples.

Results

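GBP1, GBP2, GBP3 and GBP4, a family of interferon-induced GTPases, and IRF1, a transcription factor that acts upstream of them, were followed in 16 cultures of the human colon fibroblast line Ccd18-Co. They were 5 of the 40663 gene symbols in the deposited table and were taken by symbol. GBP4 had been chosen by its lower level in GSK-J4-treated than in vehicle libraries, and the other members were added as its relatives and their regulator. For that reason the members are described with values and no test in every comparison that holds GSK-J4 libraries, and are tested in the others. The vehicle values of GBP4 also entered that choice. Its p-values in the tested comparisons with vehicle are therefore not independent of the choice.

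RNA-seq was done on 4 groups of 4 cultures. Unstimulated cells received only DMSO. The other groups received pulses of 72 h of a cytokine mix, each with 96 h of recovery, and then rested for 1 week. They were next exposed for 5 days to DMSO (called vehicle here), to 250 nM belinostat, which inhibits histone deacetylases, or to 10 µM GSK-J4, which inhibits demethylases of lysine 27 of histone H3. RNA was collected 2 weeks later, so that the values describe what remained after cytokine and compound had been withdrawn. The mix held 10 ng/ml of OSM, IL-17A and TNF and 0.1 ng/ml of IL-1B, and no interferon. All groups come from a single cell line in culture, and the labels do not say whether cultures of a group were started independently. The study calls its replicates in this setting biological and states that experiments with cell lines were repeated. For its RNA-seq it names fewer replicates per group than the 4 used here. Elsewhere its methods speak of averaging technical replicates of cytokine-treated and untreated fibroblasts. The p-values measure the spread between these libraries, which may be technical.

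Guanylate-binding proteins are large GTPases of the dynamin superfamily. Interferon gamma switches them on through its receptor and the kinases JAK1 and JAK2, and GAS elements in promoters, that of IRF1 among them, respond to this signal. IRF1 in turn binds interferon-stimulated response elements (ISRE) in the promoters of the family. The proteins assemble on bacteria and on the vacuoles of intracellular parasites and help to open them to the defences of the cell, and in the gut they are known as markers of interferon exposure in inflamed tissue.

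The libraries held 14.4 to 19.5 M estimated counts, and the 10 most abundant genes took 6.54% to 7.58% of them. Across genes, libraries of a group correlated at a Pearson's r of 0.9891 to 0.9976 on the variance-stabilised scale. All 10 fibroblast markers were detected, at a sum of 26433 to 36232 CPM (counts scaled to the library total), and the lowest sums were in belinostat libraries (26433 to 31155). Of 8 immune markers, 2 reached a mean of 1 CPM, the sum ran from 15.1 to 41.6, and CD3E, MS4A1 and ITGAM were at 0. None of 5 epithelial markers reached that level and KRT20 was at 0, while 1 of 4 endothelial markers did.

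The family members followed here lie in a cluster on chromosome 1 (GRCh38, GENCODE annotation, minus strand). GBP7, which is not a member, overlaps GBP2 and lies between it and GBP4. GBP3 (ENSG00000117226.12) spans 89006679 to 89022894, GBP1 (ENSG00000117228.11) spans 89051882 to 89065360, GBP2 (ENSG00000162645.13) spans 89106132 to 89150456 and GBP4 (ENSG00000162654.9) spans 89181144 to 89198942. Each has 11 exons in its canonical transcript. IRF1 (ENSG00000125347.15) lies on chromosome 5, from 132440440 to 132508719 on the minus strand, and has 10 exons. Where near-identical genes share sequence, the authors' quantification divides the reads between them by estimation. Of the distinct 31-base stretches in annotated transcripts, 15% of those of GBP1 also occurred in another gene (6.86% in GBP3), as did 10.6% of those of GBP2 (8.17% in GBP7), 12.5% of those of GBP3 (9.48% in GBP1) and 14% of those of GBP4 (1.95% in GBP7). For IRF1 the share was 25.2%, mostly with the overlapping antisense gene IRF1-AS1 (19.8%), whose reads cannot be told apart from those of IRF1 where strand was not used.

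The stretches of promoter that carry known interferon or NF-kB elements are shown because the members differ in them. A window of 250 bases before to 50 bases after the start site was in the RefSeq table (GRCh38.p14) for 4 of the 5 members, all but GBP2. Capitals mark an ISRE core (GAAA, 2 bases of any kind and again GAAA), a GAS core (TTCNNNGAA) or the NF-kB consensus, searched on both strands, and the sequences read 5′ to 3′ on the gene strand, which is the minus strand of the genome.
GBP1 (chr1:89065316-89065345): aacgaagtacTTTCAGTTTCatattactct
GBP3 (chr1:89022854-89022882): cTTCCTTGAAagaagtacTTTCAGTTTCa
GBP4 (chr1:89198927-89198997): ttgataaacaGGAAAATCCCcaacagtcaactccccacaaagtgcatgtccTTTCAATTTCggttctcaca
IRF1 (chr5:132490804-132490907): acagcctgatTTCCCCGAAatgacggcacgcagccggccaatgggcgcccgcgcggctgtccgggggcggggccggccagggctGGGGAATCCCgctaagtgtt

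GBP1, GBP3 and GBP4 each held an ISRE core, read on the opposite strand, and that of GBP1 and GBP3 had the same letters. It began at position -127 from the start site in GBP1, at position 3 in GBP3 and at position -4 in GBP4. A GAS core stood at -15 in GBP3 and at -124 in IRF1. An NF-kB match stood at -45 in GBP4 and at -50 in IRF1. Over all 35116 windows of 300 bases, 3.57% held an ISRE core, 7.66% a GAS core and 5.91% an NF-kB match. A match of letters is a description and not evidence of binding.

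Levels differed widely within the family. Per kilobase of canonical transcript and over all 16 libraries, GBP2 stood at 959 ± 56.1 normalized counts (SD), GBP1 at 643 ± 66.7, GBP3 at 583 ± 36.9, IRF1 at 320 ± 31.4 and GBP4 at 72.8 ± 23.6. The ranges of GBP1 (448 to 763) and GBP3 (527 to 654) overlapped, whereas every other pair of neighbours in this order was apart in all libraries. GBP4 was thus the lowest of the members and, relative to its mean over all libraries, the most variable, from 38.1 to 109 per kilobase. That spread holds the low GSK-J4 values by which the gene was chosen. In vehicle libraries the SD was 8.96% of the mean for GBP4 and 10.1% for GBP1, and in belinostat libraries 8.36% and 15.6%. Within unstimulated and within GSK-J4 libraries GBP4 was the most variable member, at 27.2% and 13.2%. The remaining relatives were near the limit of detection. GBP6 reached at most 5.33 normalized counts, GBP5 at most 5.39, and GBP7 had a count in 1 library. None of these 3 was tested.

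The unstimulated libraries give the level in resting fibroblasts, and the vehicle libraries ask whether repeated cytokine exposure left a trace in these genes. GBP1 stood at 1936, 1851, 1888 and 2065 normalized counts in unstimulated replicates 1 to 4 and at 2200, 1828, 1860 and 1769 in vehicle replicates 13 to 16. GBP2, the most abundant member, stood at 4436, 4069, 3938 and 3972 against 4138, 3954, 3777 and 3765. The groups overlapped for both genes. GBP3 stood at 1716, 1737, 1835 and 1804 against 1870, 1805, 1774 and 1668. IRF1 stood at 1187, 1160, 1030 and 1149 against 1122, 1079, 1222 and 1216. These also overlapped, and each group mean lay within the range of the other group. GBP4 stood at 295, 378, 550 and 511 in unstimulated and at 468, 437, 526 and 438 in vehicle libraries, so that the vehicle libraries lay inside the spread of the unstimulated ones.

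None of the 5 members was called between vehicle and unstimulated cells at a DESeq2 adjusted p under 0.05, where 1.79% of all tested genes were (282 of 15732). edgeR called 0 as well, and 0 had an unadjusted p under 0.05. The log2 fold changes were -0.02 (SE 0.10) for GBP1, -0.07 (SE 0.05) for GBP2, 0.01 (SE 0.06) for GBP3, 0.11 (SE 0.15) for GBP4 and 0.04 (SE 0.09) for IRF1. Their DESeq2 adjusted p lay between 0.76 and 1, and that of GBP4 rests on vehicle values that also entered its choice. The 95% interval was -0.16 to 0.02 for GBP2 and -0.12 to 0.13 for GBP3, but -0.19 to 0.41 for GBP4, which leaves room for a change of that gene in either direction. In these bulk libraries, fewer expressing cells and less RNA per cell cannot be told apart.

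**Figure D1:**
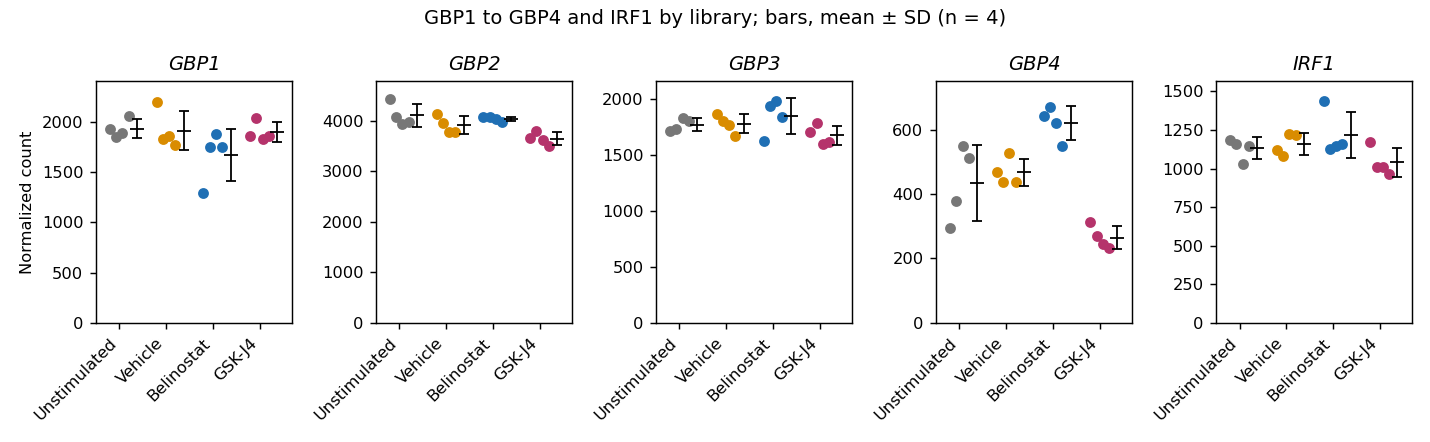
Normalized counts (y axis, from 0, a separate scale per gene) of GBP1, GBP2, GBP3, GBP4 and IRF1 in each library (points) of the 4 groups (x axis), with the mean ± SD of each group (n = 4) beside the points. GBP4 lies at 549 to 670 in belinostat and at 234 to 312 in GSK-J4 libraries, while the other members keep to a narrower range around a common level.

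Among the groups, belinostat libraries had the highest mean of GBP4, while its relatives stood near their level in the other groups. GBP4, the least abundant member, stood at 643, 670, 622 and 549 normalized counts in belinostat replicates 17 to 20, a mean of 621 ± 51.9 (SD, n = 4) against 467 ± 41.9 in vehicle and 434 ± 118 in unstimulated libraries. Every belinostat library was above every vehicle library, of which the highest was at 526, and the lowest belinostat library was at the level of the highest unstimulated one (550). GBP1 stood at 1291, 1756, 1884 and 1748, with replicate 17 below every other library of the study. GBP2 stood at 4062, 4061, 4032 and 3962, and GBP3 at 1627, 1938, 1986 and 1845. IRF1 stood at 1439, 1126, 1144 and 1157, with replicate 17 above every other library. All of these overlapped with both comparison groups.

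Against vehicle, 0 of the 5 members were called by DESeq2 or by edgeR, with 5.99% of all tested genes called (882 of 14717), and 2 of the 5 had an unadjusted p under 0.05. GBP4 had a log2 fold change of 0.41 (DESeq2 adjusted p 0.0974, SE 0.15, 95% interval 0.11 to 0.71), and was called in the fit of these 8 libraries alone (0.41, DESeq2 adjusted p 0.000991). Both values rest on vehicle libraries that also entered the choice of GBP4, so they are not independent of it. GBP1 had a log2 fold change of -0.20 (DESeq2 adjusted p 0.297, SE 0.10), which came to -0.09 without belinostat replicate 17. With 2 surrogate variables GBP1 was called (-0.25, DESeq2 adjusted p 0.0163). The values of GBP2, GBP3 and IRF1 were 0.04 (SE 0.05), 0.05 (SE 0.06) and 0.07 (SE 0.09).

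Against unstimulated cells 1 of the 5 members was called, with 9.76% of all tested genes called (1436 of 14717). This comparison shares no library with that by which GBP4 was chosen. The fit of all 16 libraries shared its dispersion estimate, however, so the vehicle and GSK-J4 libraries still entered the SE. GBP4 rose by 0.52 on the log2 scale (DESeq2 adjusted p 0.0122, SE 0.15, 95% interval 0.22 to 0.82, edgeR adjusted p 0.0359), a fold of 1.43. The call was lost when only the 8 belinostat and unstimulated libraries were fitted (DESeq2 adjusted p 0.0543). It was also lost without belinostat replicate 18 (DESeq2 adjusted p 0.0571) and without unstimulated replicate 2 (0.0778). GBP1 was at -0.21 (DESeq2 adjusted p 0.174, SE 0.10), at -0.11 without belinostat replicate 17, and at -0.29 with 2 surrogate variables, where it was called (DESeq2 adjusted p 0.00308). GBP2 at -0.03 (SE 0.05), GBP3 at 0.06 (SE 0.06) and IRF1 at 0.11 (SE 0.09) were not called. Between the same groups CD14, an immune marker, stood at a mean of 196 normalized counts in belinostat against 71.8 in unstimulated cells. Its log2 fold change was 1.45 (DESeq2 adjusted p 0.00113). PTPRC, carried by blood cells, was at means of 2.33 and 0.713 normalized counts. The immune markers did not move together, as CD68 was lower in belinostat (means of 257 and 291) and so was LYZ. Of the 2 immune markers tested, 1 had a log2 fold change above 0. In vehicle libraries the mean was 141 ± 42.9 (SD, n = 4) for CD14 and 2.58 for PTPRC. Between belinostat and vehicle, 0 of the 2 tested immune markers were called. The part of these markers in the level of GBP4 was not tested.

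A second measure moved with GBP4 among the unstimulated libraries. The mean log2 level of 2261 genes with canonical transcripts over 6000 bases was set against that of 2757 genes with transcripts under 2000 bases, each gene centred over all libraries. This difference was -0.26, -0.15, 0.13 and 0.01 in unstimulated replicates 1 to 4, and the 2 lowest libraries were also those with the least GBP4. It ran from -0.09 to 0.07 in vehicle, from 0.01 to 0.14 in belinostat and from -0.06 to 0.02 in GSK-J4 libraries. The canonical transcript of GBP4 has 6141 bases, against 2883 for GBP1, 3037 for GBP3 and 4088 for GBP2. With this difference as a covariate, an alternative added after the values were seen, the log2 fold change of GBP4 between belinostat and unstimulated cells was 0.29 and was not called (DESeq2 adjusted p 0.138).

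**Figure D2:**
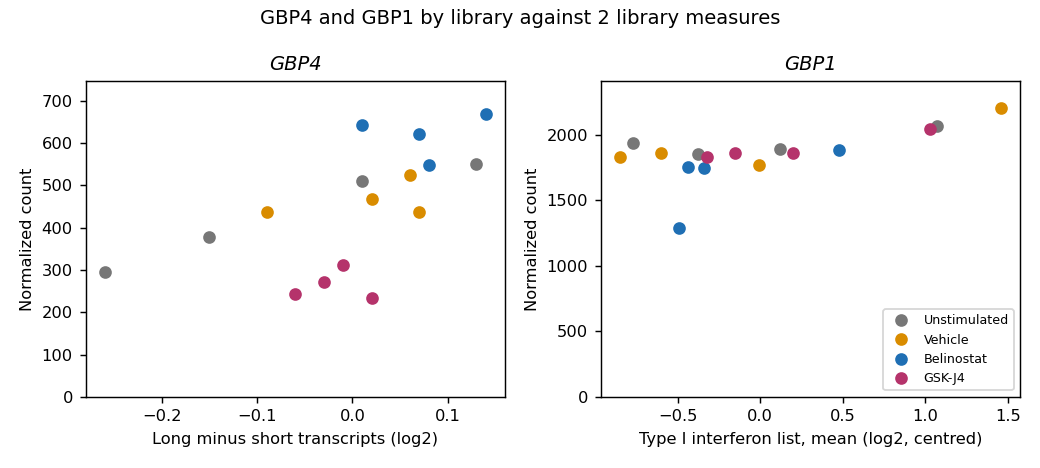
Left, normalized counts of GBP4 (y axis) against the mean level of long minus short transcripts (x axis, log2) in each library. Right, normalized counts of GBP1 (y axis) against the mean level of 23 type I interferon-stimulated genes (x axis, log2, centred over all libraries). Colours mark the 4 groups. Unstimulated libraries at -0.26 and -0.15 on the left hold 295 and 378 counts of GBP4, GSK-J4 libraries lie below vehicle libraries of like x value, and on the right the libraries at 1.03 or above hold over 2000 counts of GBP1.

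In GSK-J4 libraries GBP4 stood at 312, 271, 244 and 234 normalized counts in replicates 21 to 24, a mean of 265 ± 35.1 (SD, n = 4). All were below the lowest vehicle library (437), the difference by which the gene was chosen. The log2 fold change was -0.82 against vehicle (SE 0.16), -0.90 to -0.76 when any 1 library was left out and -0.75 with the long-transcript covariate. Against unstimulated cells it was -0.71 (SE 0.16), and there the highest GSK-J4 library (312) was above the lowest unstimulated one (295). Against belinostat, GBP4 in GSK-J4 libraries was lower by a fold of 2.34 with no overlap. This gap also holds the low GSK-J4 values by which the gene was chosen.

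The other members differed much less between GSK-J4 and vehicle. GBP2, at 3655, 3803, 3621 and 3501 normalized counts in GSK-J4 libraries, had a log2 fold change of -0.10 (SE 0.05) against vehicle. The highest GSK-J4 value of GBP2 was 3803, against lowest values of 3938 in unstimulated and 3962 in belinostat libraries. The share of all genes whose groups separate was not counted, here or for the other genes named, so such gaps are description only. GBP3 stood at 1712, 1785, 1600 and 1615 (log2 fold change -0.08, SE 0.06) and IRF1 at 1175, 1009, 1013 and 963 (-0.16, SE 0.09), overlapping with vehicle. GBP1 stood at 1863, 2044, 1830 and 1863 (-0.01, SE 0.10). The belinostat and GSK-J4 comparisons share the vehicle libraries, so their values are not independent of each other.

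**Figure D3:**
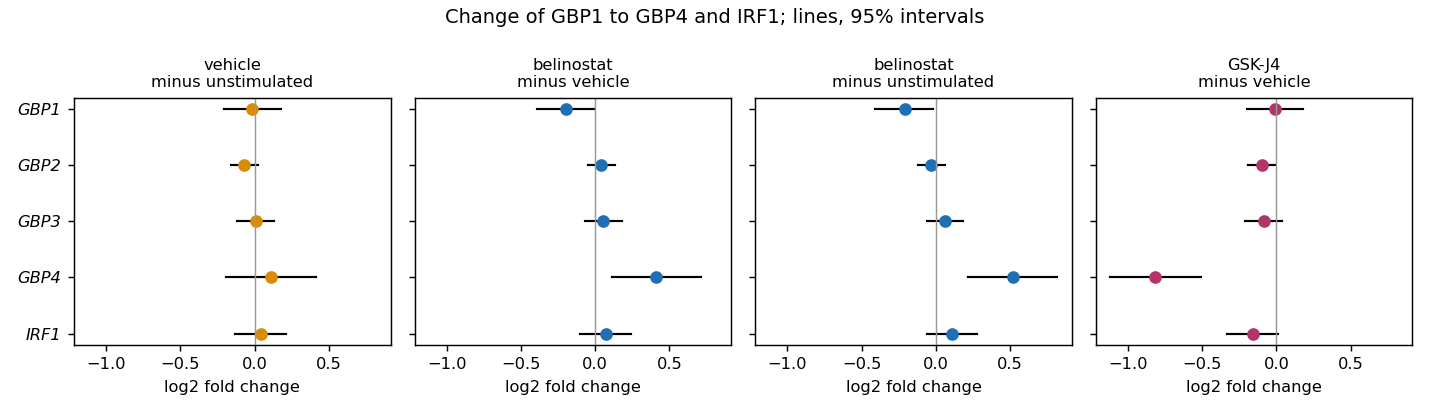
Log2 fold changes (x axis; points) with 95% intervals (lines) of the members (y axis) in 4 comparisons, each named above its panel as the group and the group subtracted from it. GBP4 lies at 0.41 and 0.52 in the belinostat panels and at -0.82 in the GSK-J4 panel, which chose the gene, and the other members lie between -0.21 and 0.11 in all panels.

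The balance of GBP4 against its relatives was measured within each library as the log2 ratio of GBP4 to the mean of GBP1, GBP2 and GBP3 on the log2 scale, a measure chosen after the values were seen. It was -2.52 ± 0.42 (SD, n = 4) in unstimulated, -2.34 ± 0.14 in vehicle, -1.89 ± 0.18 in belinostat and -3.10 ± 0.16 in GSK-J4 libraries. The ratio was higher in every belinostat library than in every vehicle library, by 0.45 on average, and than in every unstimulated library, by 0.62. Vehicle and unstimulated libraries overlapped and differed by 0.17. These differences follow from the GBP4 values above, so a permutation test that was run on the ratio is not used as support. The ratio sets a long transcript against shorter ones, and no value was corrected for the long-transcript measure.

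Within groups, GBP1 and GBP4 went with different libraries. A mean over 23 genes induced by type I interferon, such as MX1 and IFIT1, separated single libraries. It was highest in unstimulated replicate 4 (1.07 on a centred log2 scale), vehicle replicate 13 (1.46), belinostat replicate 19 (0.48) and GSK-J4 replicate 22 (1.03). In each of the 4 groups that library was also the highest for GBP1, whereas this held in 3 groups for GBP3, in 2 for GBP2 and in 0 for GBP4 or IRF1. Belinostat replicate 17, the lowest for GBP1, had the most IRF1. This pattern was chosen after the values were seen and has no test.

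In the list of interferon gamma signalling, IFNG itself was not tested for lack of counts. Its receptor chains stood at group means of 1172 to 1274 (IFNGR1) and 526 to 555 (IFNGR2) normalized counts, and the kinases JAK1 and JAK2 at 5404 to 5581 and 679 to 790. None of these 4 was called between vehicle and unstimulated cells or between belinostat and either group. The genes of this list called in both belinostat comparisons were the inhibitors SOCS1 and SOCS3. SOCS1, which blocks JAK kinases, stood at 74.4 ± 14.1 normalized counts in belinostat against 140 ± 17.8 in vehicle and 135 ± 14.9 in unstimulated libraries (SD, n = 4). It fell by 0.91 on the log2 scale against vehicle (DESeq2 adjusted p 0.000119, SE 0.19) and by 0.87 against unstimulated cells (DESeq2 adjusted p 0.000237, SE 0.19). In GSK-J4 libraries it stood at 248 ± 62.9 and rose by 0.83 against vehicle (DESeq2 adjusted p 0.00067, SE 0.18). The groups did not overlap in these 3 comparisons. SOCS3, a related inhibitor, fell by 0.26 against vehicle (DESeq2 adjusted p 0.0192, SE 0.08) and by 0.27 against unstimulated cells (DESeq2 adjusted p 0.00818, SE 0.08). Against vehicle, the call of SOCS3 was lost without belinostat replicate 17 (-0.22, DESeq2 adjusted p 0.0718), 18 (-0.25, 0.0674) or 19 (-0.25, 0.0581) and without vehicle replicate 13 (-0.23, 0.108) or 16 (-0.24, 0.0857). Against unstimulated cells it was lost without unstimulated replicate 4 (-0.22, DESeq2 adjusted p 0.0641), in the fit of only those groups (-0.27, 0.0541) and with the long-transcript covariate (-0.23, 0.0852). PTPN11, a phosphatase, rose by 0.12 in belinostat against unstimulated cells (DESeq2 adjusted p 0.00623, SE 0.03), a call lost with edgeR (edgeR adjusted p 0.0653), in the fit of only those groups (DESeq2 adjusted p 0.118) and with the long-transcript covariate (0.0807).

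Over 6 lists of 88 genes that hold no member, 2 of 77 tested genes were called between vehicle and unstimulated cells (2.6%), 2 of 75 between belinostat and vehicle (2.67%), 8 of 75 between belinostat and unstimulated cells (10.7%) and 1 of 71 between GSK-J4 and vehicle (1.41%). Over all genes these shares were 1.79%, 5.99%, 9.76% and 1.82% (249 of 13703). The belinostat count against vehicle came to 1 without belinostat replicate 18 or without vehicle replicate 16, and to 4 without vehicle replicate 14. That for GSK-J4 came to 2 without vehicle replicate 13.

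Of 8 tested relatives and partners of IRF1, 1 was called in vehicle against unstimulated cells. IRF8, a factor best known from myeloid cells, fell from 73.2 ± 17.2 to 22.9 ± 7.77 normalized counts (SD, n = 4), by 1.68 on the log2 scale (DESeq2 adjusted p 7.72e-05, SE 0.33), and stood at 20.7 ± 10.8 with belinostat and 29.5 ± 5.55 with GSK-J4. Against unstimulated cells, the fall in belinostat was also called (-1.83, DESeq2 adjusted p 3.45e-06). Of 16 genes for the immunoproteasome and peptide loading, which interferon gamma also controls, ERAP2 alone was called between vehicle and unstimulated cells. This trimming peptidase of the endoplasmic reticulum rose by 0.31 (DESeq2 adjusted p 3.58e-06, SE 0.05), and by 0.41 in belinostat against unstimulated cells (DESeq2 adjusted p 2.01e-11, SE 0.05). Of 20 tested interferon gamma-inducible genes 0 were called by DESeq2 or edgeR between vehicle and unstimulated cells, and 3 had an unadjusted p under 0.05. Their median log2 fold change was 0.19, against -0.004 over all genes. Between belinostat and unstimulated cells 2 of 18 rose. HLA-DMA, which loads peptides on class II molecules, rose by 0.79 (DESeq2 adjusted p 0.00777, SE 0.23), a call lost without belinostat replicate 17 (0.66, DESeq2 adjusted p 0.057). The adhesion receptor ICAM1 rose by 0.37 (DESeq2 adjusted p 0.038, SE 0.13), a call lost in 8 alternatives, among them edgeR (edgeR adjusted p 0.0691) and the long-transcript covariate (0.26, DESeq2 adjusted p 0.283), and without belinostat replicate 18, 19 or 20 or unstimulated replicate 1 or 2 (0.25 to 0.38).

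The type I interferon-stimulated genes had the lowest median of the lists under belinostat, -0.43 against vehicle and -0.31 against unstimulated cells over 23 genes, with medians over all genes of 0.003 and -0.001. DESeq2 and edgeR called 0 of the 23 against vehicle, with 1 at an unadjusted p under 0.05. Against unstimulated cells DESeq2 called 1, the exonuclease gene ISG20, which fell by 0.64 (DESeq2 adjusted p 0.0471, SE 0.22), and edgeR called 0. The ISG20 call was lost in 10 alternatives, of which leaving out belinostat replicate 17 gave the smallest change (-0.42, DESeq2 adjusted p 0.219). The spread between libraries was wide, as MX1, an antiviral GTPase named here after its values were seen, ranged from 388 to 2639 normalized counts within the vehicle group alone.

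**Figure D4:**
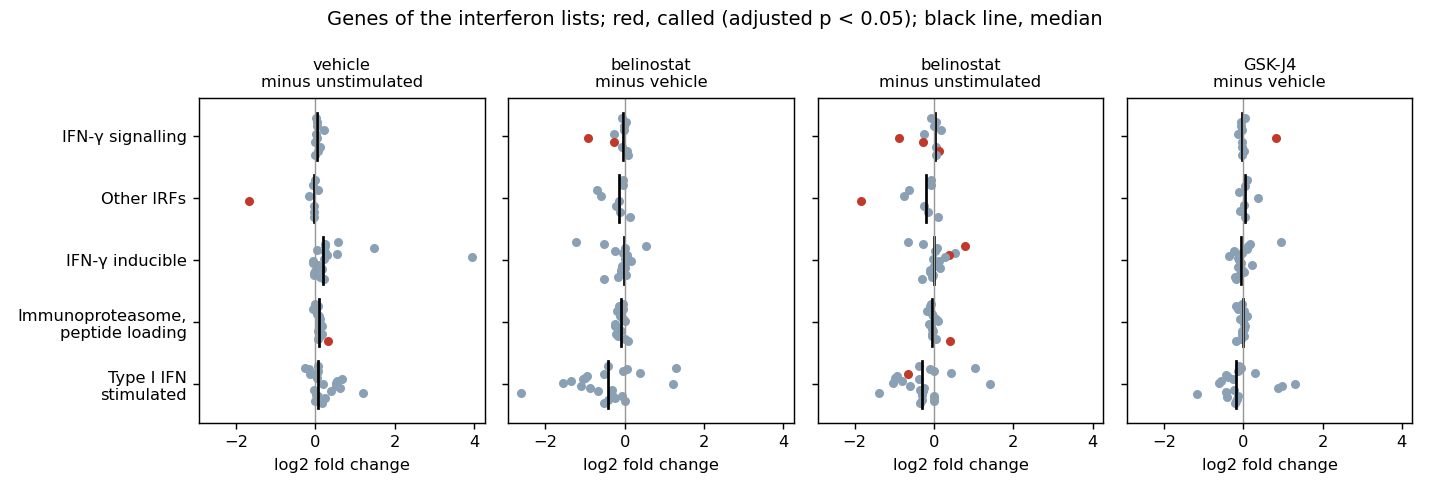
Log2 fold changes (x axis) of the tested genes of 5 interferon lists (y axis) in 4 comparisons, each named above its panel. Each point is a gene, red where its DESeq2 adjusted p was under 0.05, and the black line is the median of the list. Most points lie near 0, the red points at about -0.9 and 0.8 in the signalling row are SOCS1, and the type I genes are the most spread.

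Genes beside the family did not share the values of GBP4. On the GTF2B side of the cluster, RBMXL1, KYAT3 and GTF2B had log2 fold changes of -0.08, 0.04 and -0.04 in belinostat against unstimulated cells and of -0.13, -0.04 and -0.03 in GSK-J4 against vehicle. On the other side, LRRC8B, LRRC8C and LRRC8D, which encode subunits of volume-regulated anion channels, had values of -0.11, 0.03 and 0.23 and of 0.00, 0.27 and 0.12. DESeq2 called none of these 6 in the 4 comparisons (LRRC8B was not tested in the last), and edgeR called RBMXL1 between belinostat and vehicle (log2 fold change -0.23, edgeR adjusted p 0.0452). Beside IRF1, KIF3A, a kinesin motor gene, was called in belinostat against both groups, at 0.27 against vehicle (DESeq2 adjusted p 0.0119, SE 0.08) and 0.26 against unstimulated cells (DESeq2 adjusted p 0.0128, SE 0.08). Both calls of KIF3A were lost without belinostat replicate 18 (0.23 and 0.22, DESeq2 adjusted p 0.0918 and 0.084) and in the fit of only the groups compared (DESeq2 adjusted p 0.0601 and 0.101). The call against vehicle was also lost without vehicle replicate 13 (0.25) or 15 (0.25), and that against unstimulated cells without unstimulated replicate 4 (0.24). SLC22A4, which encodes a transporter of organic cations, rose by 0.78 in belinostat against unstimulated cells (DESeq2 adjusted p 0.00569, SE 0.22). IRF1-AS1, SLC22A5, RAD50 and SEPTIN8 were not called in any of the 4 comparisons.

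**Figure D5:**
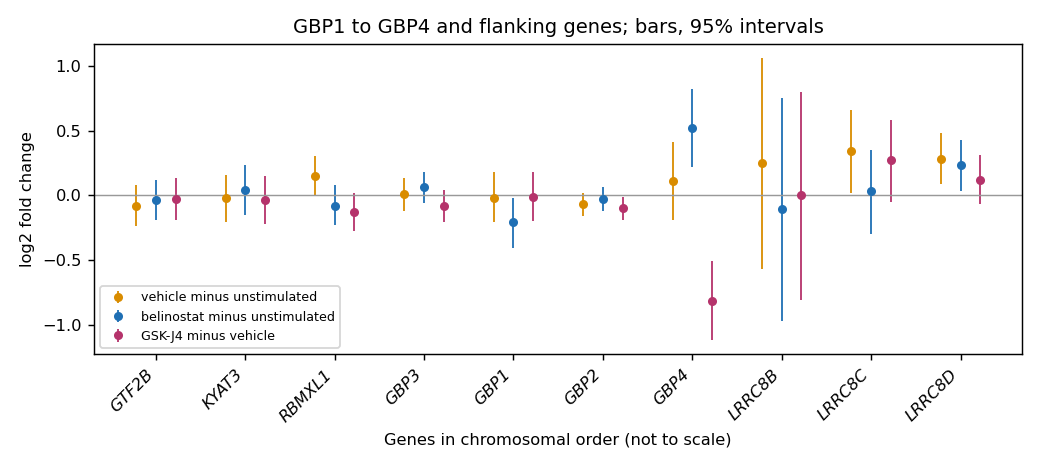
Log2 fold changes (y axis; points) with 95% intervals (bars) of GBP1 to GBP4 and the 3 nearest genes on each side with a mean of at least 10 normalized counts, in chromosomal order (x axis, not to scale), in 3 comparisons (colours). GBP4 lies at 0.52 for belinostat minus unstimulated and at -0.82 for GSK-J4 minus vehicle. The genes drawn beside it, GBP2 and LRRC8B, lie at -0.03 and -0.11, and at -0.10 and 0.00. GBP7, between GBP2 and GBP4, and GBP5 and GBP6, between GBP4 and LRRC8B, had too few counts and are not drawn.

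The genes most like GBP4 over the 16 libraries were outside the family. Among 11736 genes with a mean of at least 50 normalized counts, Pearson's r with GBP4 on the log2 scale was highest for SCN3A (0.964), which encodes a sodium channel, PAG1 (0.937), a membrane adaptor gene, TFDP2 (0.931), a partner of E2F factors, TCAIM (0.922) and ITPR2 (0.920), a calcium channel gene. SCN3A stood at 6246 ± 265 normalized counts in belinostat, 4843 ± 397 in vehicle, 4898 ± 656 in unstimulated and 3160 ± 402 in GSK-J4 libraries (SD, n = 4). The canonical transcripts of SCN3A, PAG1, TFDP2 and ITPR2 have 9102, 10744, 9880 and 12564 bases, and that of TCAIM 3370. Within the members, r with GBP4 was 0.63 for GBP3, 0.55 for IRF1, 0.46 for GBP2 and -0.34 for GBP1. Taken on deviations from the group means, it was 0.36 for GBP3, 0.02 for IRF1, -0.45 for GBP2 and 0.04 for GBP1. The r values over all libraries hold the 4 groups, the length measure above and the low GSK-J4 values by which GBP4 was chosen. None of the r values says anything of a shared function.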

How the data were processed

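The authors quantified reads with kallisto (0.48.0, default settings), after FastQC (0.11.9) and MultiQC (1.14). The build named in the submitters' processing notes is hg38, and the transcriptome release and the summing to symbols are not given in the sources used here. The deposited table gives kallisto's estimated counts summed to symbols and not scaled to depth, and 28.0% had decimals. Counts were rounded to whole numbers here. IL-1B, belinostat and GSK-J4 are given at the concentrations in the labels. The study's text names other doses of both compounds for its protein measurements in this setting.

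DESeq2 (1.42.0, R 4.3.3) was fitted to all 16 libraries with group only, as the study's methods name DESeq2. Calls are at a Benjamini-Hochberg adjusted p under 0.05 over all genes tested, by DESeq2's Wald test, which is two-sided. Normalized counts were obtained by division by DESeq2 size factors, and intervals are 95%. In all, 6 comparisons were fitted, of which 3 were tested for the members. Alternatives were edgeR's quasi-likelihood test (4.0.16), other size factors, a filter of 10 counts in 4 libraries, fits of only the groups compared, 2 surrogate variables (sva 3.50.0), each library left out and, added later, the long-transcript covariate. Both tests were tested on simulated data, with changes set between vehicle and unstimulated cells only. Of 220 DESeq2 calls 25 were false, a share above the threshold. Of 204 edgeR calls 10 were false, a share just below it. Gene lengths and positions are from GENCODE on GRCh38, and promoter windows from RefSeq.

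The members and lists were chosen with earlier results of these data known. The text names the members; called genes of each list, at most 4 in each direction; IFNGR1, IFNGR2, JAK1, JAK2, SOCS1 and the other relatives, except a gene that is not reported here; the 3 nearest genes on each side that averaged 10 normalized counts or more; and the 5 genes most like GBP4. Unstimulated columns are marked none although their titles give DMSO, so they were matched by replicate number. Rounded counts of the members were 223 to 4597 per library, and lowest for GBP4 (223 to 674). The part of counting error in their spread was not measured.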

Additional observations from a re-analysis of the deposited data

Results flagged for a closer look

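Within a group of 4, 2 libraries stood far from the others for a member, among 20 groups tested, where chance gives about 1 in 20. GBP1 was at 2044 normalized counts in GSK-J4 replicate 22 and at 1830 to 1863 in the other GSK-J4 libraries. IRF1 was at 1439 in belinostat replicate 17 and at 1126 to 1157 in the other belinostat libraries. The gaps of 0.843 and 0.901 are the distance to the nearest library over the range of the group.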

How the results depend on the processing

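Over 37 results and 555 alternative values, 531 kept their side of the threshold or moved little, and 0 reversed a called value. The 531 include changes of direction of values that were not called. An example is GBP4 between vehicle and unstimulated cells, at 0.11 and at -0.04 without unstimulated replicate 1. Of the members, 0 were called between vehicle and unstimulated cells under every alternative. Between belinostat and vehicle the count was 1 in the fit of only the groups compared (GBP4) and 1 with 2 surrogate variables (GBP1), and 0 to 0 with a library left out. Between belinostat and unstimulated cells it was 0 in the fit of only the groups compared, 2 with 2 surrogate variables, 0 with the long-transcript covariate and 0 to 1 with a library left out, losing GBP4 without belinostat replicate 18 or unstimulated replicate 2. The log2 fold change of GBP4 there was 0.37 to 0.65 with a library left out. Genes called in the lists numbered 4 with 2 surrogate variables between vehicle and unstimulated cells. Between belinostat and vehicle they numbered 1 to 4 with a library left out. Between belinostat and unstimulated cells they numbered 5 with edgeR, 4 with only the groups compared, 5 with the long-transcript covariate and 6 to 8 with a library left out. Between GSK-J4 and vehicle they numbered 2 with only the groups compared and 1 to 2 with a library left out. The causes were not tested. No paired analysis was possible because the groups share no replicate numbers. GBP5, GBP6 and GBP7 had too few counts to be tested at this depth.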
